A study of Mus musculus with 12 samples.

Results

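The S38D line of a mouse B cell lymphoma was compared with the WT line in asynchronously growing cells, across all genes with enough reads to test. WT and S38D name the form of RPL12 (uL11), a protein of the large ribosomal subunit whose serine at codon 38 is replaced by aspartate in S38D. The comparison used 4 of the 12 libraries of the series, 2 from S38D and 2 from WT asynchronous cells. Of 51826 genes in the deposited files, 10477 passed a filter on low counts and were tested. All cells were 19DN, a subline of the 19PP lymphoma that arose from bone marrow carrying Cγ1-Cre with Cre-activated Myc and P110* alleles, grown in a Rag2-/- γC-/- host that makes no lymphocytes of its own. Cγ1-Cre acts mainly in B cells that have been switched on in a germinal centre, so WT cells shared the oncogenic Myc and PI3K alleles with S38D cells. Flp recombinase had removed the GFP and hCD2 reporter genes from the subline before the RPL12 lines were compared. How the S38D allele was made, and whether a line is 1 clone, is not given in the sources used here. Both groups were harvested in cycloheximide at 100 µg/mL, which holds ribosomes on mRNA, and RNA came from cleared polysome lysates. Nothing in the labels says that replicate libraries came from separate cultures, so each p-value measures only the spread between these libraries, which may be technical.

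RPL12 sits at the base of the ribosomal P-stalk beside RPLP0, which carries the acidic proteins RPLP1 and RPLP2. The stalk recruits the elongation factors and activates the kinase GCN2 when ribosomes stall or amino acids run short. GCN2 and related kinases phosphorylate the initiation factor eIF2, which lowers general translation and favours translation of the transcription factor ATF4. ATF4 then raises genes for amino acid uptake and synthesis, redox balance and, under lasting stress, cell death.

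The 4 libraries held 6523991 and 5660515 gene reads in S38D, against 4908697 and 3432875 in WT. Levels are given below in CPM, the reads of a gene relative to the library total, scaled with TMM factors, which set the bulk of genes equal between libraries. A gene was called where edgeR's quasi-likelihood test gave a Benjamini-Hochberg adjusted p under 0.05 over all 10477 genes. Rpl12 itself (chromosome 2, 32961559 to 32965345, GRCm38) had 35.8 and 28.3 CPM in S38D libraries, against 39.9 and 39.1 CPM in WT libraries. Its log2 fold change was -0.30 (SE 0.165, edgeR adjusted p = 0.275). A substitution of 1 codon is not visible in counts of 3′ reads, so this level checks no label. Ribosomal protein genes have many processed copies, and how reads that match several of them were counted is not given in the sources used here, so the level of Rpl12 is uncertain.

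B cell markers were detected in all 4 libraries. Ms4a1 (CD20) had 1420 and 1301 CPM in S38D, against 992 and 873 CPM in WT, and Cd79b had 865 and 727 CPM in S38D, against 713 and 720 CPM in WT. Pou2af1, a B cell coactivator, lay between 3605 and 5445 CPM in all 4 libraries, while Cd79a was low, at no more than 17.3 CPM in any of them. The defining T cell genes Cd3e, Cd3d, Cd4 and Cd8a and the myeloid genes Itgam, Adgre1 and Lyz2 had no read in any of the 4 libraries. Some markers of other cell types were detected in all 4 libraries. Clec4d, a myeloid lectin gene, is described below. Csf1r had 13 and 13 reads in S38D and 4 and 4 reads in WT, and Cd68 had 14 and 11 reads in S38D and 9 and 7 reads in WT. No read in any of the 4 libraries was found for 14 of 20 myeloid markers. The same was so for 7 of 21 stromal, epithelial and erythroid markers. Epcam, Acta2 and Klf1 of that list had reads in all 4 libraries, at no more than 3.71 CPM. Vim had 89.8 and 109 CPM in S38D and 94.5 and 98.3 CPM in WT, Pecam1 had 29.4 and 30.2 CPM in S38D and 22.7 and 25.8 CPM in WT, and Klrb1c had 4.62 and 2.83 CPM in S38D and 2.93 and 2.83 CPM in WT. The part of such cells in the results was not tested. The globin gene Hbb-bt was also detected, with 631 and 556 CPM in S38D and 784 and 800 CPM in WT while Hba-a1 had no read.

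The 2 S38D libraries stood apart from each other more than the replicates of any other group. For 44.8% of genes they differed beyond the 95% range of counting error, against 13% in the WT asynchronous pair. On the main axis of deviations within groups, which held 48.37% of that variance, S38D replicate 1 lay at -41.89 and S38D replicate 2 at 21.57, against 22.62 and 21.02 for the WT libraries. Among the other libraries only WT mitotic replicate 1, at -32.09, lay near S38D replicate 1. Counts of genes below are therefore given with both S38D libraries and with what holds for each of them.

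With both S38D libraries, 942 genes were called, 8.99% of those tested. Of these, 510 (4.87%) were higher and 432 (4.12%) lower in S38D, and 322 differed at least 2-fold. With S38D replicate 1 alone 3201 genes (30.6%) were called, 1824 higher (17.4%) and 1377 lower (13.1%). With S38D replicate 2 alone the count was 558 (5.33%), 266 higher (2.54%) and 292 lower (2.79%). In these one-library fits the lone S38D library was assumed to vary like the libraries of the other groups. Both fits called 456 genes in the same direction (4.35%), 232 higher (2.21%) and 224 lower (2.14%). These 456 are 14.2% of the calls with replicate 1 alone and 81.7% of those with replicate 2 alone, and 450 of them were also called with both libraries. The 2 fits called 2 genes in opposite directions. Both use the same WT libraries, so agreement in direction is partly built in. In the text below, a gene called by each of the 2 fits is said to hold with each S38D library.

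The choice of genes that held fixes a difference in both libraries, so their sizes are given as a description. Genes that held and were lower had median log2 differences from the WT mean of -1.27 in S38D replicate 1 and -1.13 in S38D replicate 2. Genes that held and were higher had medians of 0.74 and 0.57. Genes called lower with replicate 1 but not with replicate 2 had a median of -1.19 in replicate 1 but -0.24 in replicate 2. Those called higher with replicate 1 but not with replicate 2 had medians of 0.50 and 0.18. Of the 942 genes, 492 did not hold with each library, and 447 of those were called with replicate 1 alone but not with replicate 2. In the plot of both S38D libraries against WT, genes called lower with replicate 1 but not replicate 2 form a band far to the left with little height.

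**Figure D1:**
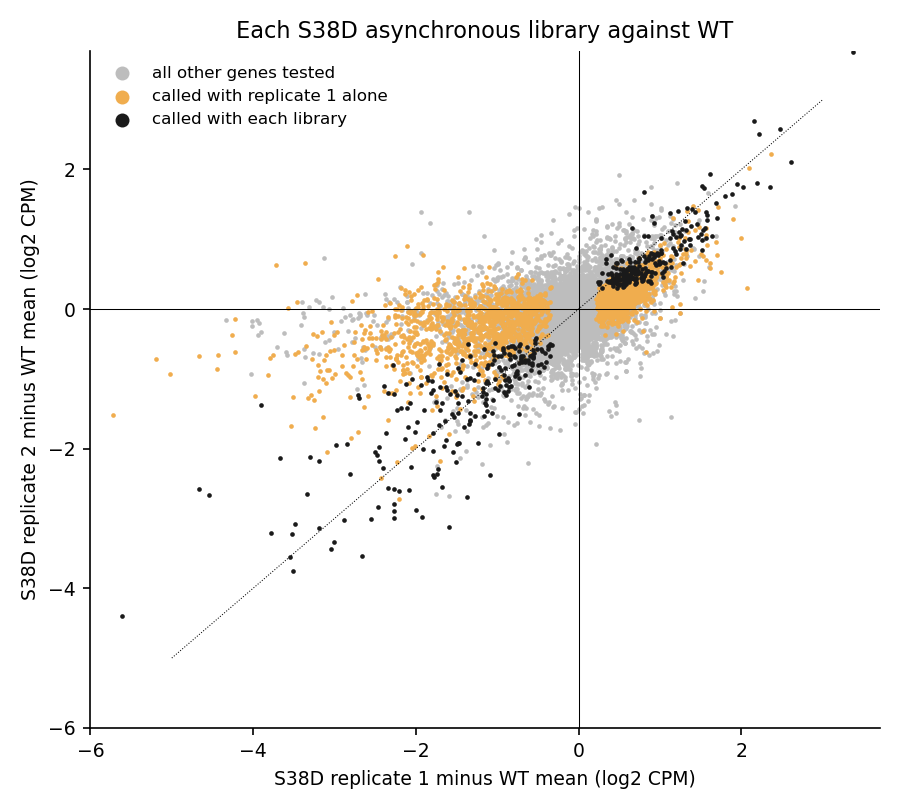
Each point is 1 of the 10477 genes tested, with the log2 CPM of S38D replicate 1 minus the WT mean on the horizontal axis and that of S38D replicate 2 on the vertical axis, both in asynchronous cells. Black points are the 456 genes that held with each S38D library and lie near the dotted line of equal difference. Orange points were called with replicate 1 but not with replicate 2. The lower ones spread far to the left at replicate 2 values near 0.

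Counts were also lower with either WT library left out. Without WT replicate 1 the counts were 88 higher and 147 lower, and without WT replicate 2 they were 158 higher and 184 lower. Genes called in the same direction without each of the 12 libraries in turn numbered 188, 67 higher and 121 lower in S38D. All of them hold with each S38D library by definition, because 2 of these 12 fits are the ones that define it. Scaled to the ERCC spike-in RNA instead of to the bulk of genes, the median of all genes shifted by -0.38 (log2), and 58 genes were called higher and 1307 lower. Spike-in reads came to 3.34% and 2.83% of gene reads in S38D, against 2.71% and 2.29% in WT. Each library was made from 1 µg of total RNA with spike-ins, so the spike-in share measures neither cell number nor RNA per cell. What shifted that share was not tested. For a single gene, fewer cells of a kind and less of its RNA per cell cannot be told apart in RNA from whole cultures. Directions below are relative to the bulk of genes, and of 98 called genes that the naming rule selects, none changed sign under the spike-in scaling while 27 lost their call.

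Targets of ATF4 were more often called lower in S38D than genes at large, of which 4.12% were called lower and 4.87% higher. Of 47 measured targets 23 were called lower and none higher, 22 of the 23 held with each S38D library, and 16 were called without each of the 12 libraries. The median log2 fold change of the list was -0.62 with both libraries, -0.52 with replicate 1 alone and -0.56 with replicate 2 alone, beside a median of 0.00 over all genes. With the spike-in scaling 35 targets were called lower and none higher. With the 2 asynchronous groups fitted alone, 9 targets were called lower and none higher, in a fit that called 21 of all genes higher and 62 lower. Without WT replicate 1 the count of lower targets was 18 and without WT replicate 2 it was 16, while with S38D replicate 1 alone 3 targets were called higher and 26 lower.

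The falling targets covered several arms of the response, and those described below beyond the naming rule were chosen after their values were seen. Among its transcription factors, Ddit3 (CHOP, a factor linked to death under stress) had 115 and 93.2 CPM in S38D, against 281 and 305 CPM in WT, a log2 fold change of -1.49 (SE 0.131, edgeR adjusted p = 3.48e-06). Cebpb, a basic leucine zipper partner of ATF4, had 21.01 and 25.1 CPM in S38D and 78.2 and 94.7 CPM in WT. Atf5 had 1407 and 1145 CPM in S38D, against 2669 and 2612 CPM in WT. In each of these genes both S38D libraries lay below both WT libraries. Atf4 mRNA had 1459 and 1319 CPM in S38D and 2005 and 2298 CPM in WT, a log2 fold change of -0.63 (SE 0.124, edgeR adjusted p = 0.00463), and this call was lost without WT replicate 2 (edgeR adjusted p = 0.0973).

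Among the feedback and stress genes, Trib3, a pseudokinase that restrains ATF4 and CHOP, had 92.6 and 77.8 CPM in S38D, against 292 and 351 CPM in WT, a log2 fold change of -1.92 (SE 0.130, edgeR adjusted p = 2.61e-07). Nupr1, a small stress-induced chromatin protein gene, had 1.59 and 1.41 CPM in S38D and 15.2 and 13.0 CPM in WT, a log2 fold change of -3.22 (SE 0.378, edgeR adjusted p = 5.46e-05). Sesn2 and Ddit4, both inhibitors of mTORC1 signalling, had log2 fold changes of -1.06 and -0.93. Herpud1, which helps clear misfolded proteins from the endoplasmic reticulum, had 385 and 310 CPM in S38D and 694 and 709 CPM in WT. Inhbe, an activin subunit gene outside the list and chosen after its values were seen, had no read in either S38D library and 16 and 18 reads in the WT libraries. Against a floor of 3 reads over the S38D group, which covers counting error only, it was at least 16.6-fold lower.

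Genes of amino acid handling divided. Slc7a11, the cystine exchanger subunit, had 2.71 and 3.36 CPM in S38D, against 11.9 and 14.4 CPM in WT, and Cth, the enzyme that makes cysteine from cystathionine, had 19.3 and 44.0 CPM in S38D, against 182 and 204 CPM in WT. The amino acid transporters Slc1a4 and Slc6a9 had log2 fold changes of -0.94 and -0.98. Other textbook targets did not pass the test. Asns, asparagine synthetase, had 109 and 88.2 CPM in S38D and 134.5 and 134.1 CPM in WT (log2 fold change -0.44, edgeR adjusted p = 0.0614). Psat1 of serine synthesis had 727 and 610 CPM in S38D and 692 and 728 CPM in WT, and the groups overlapped. Of 23 cytosolic tRNA synthetase genes, 1 was called lower and 1 higher, Iars and Farsa, and neither held with each library. Of 17 serine and one-carbon genes Cth was lower and Shmt1 higher, and Shmt1 did not hold.

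**Figure D2:**
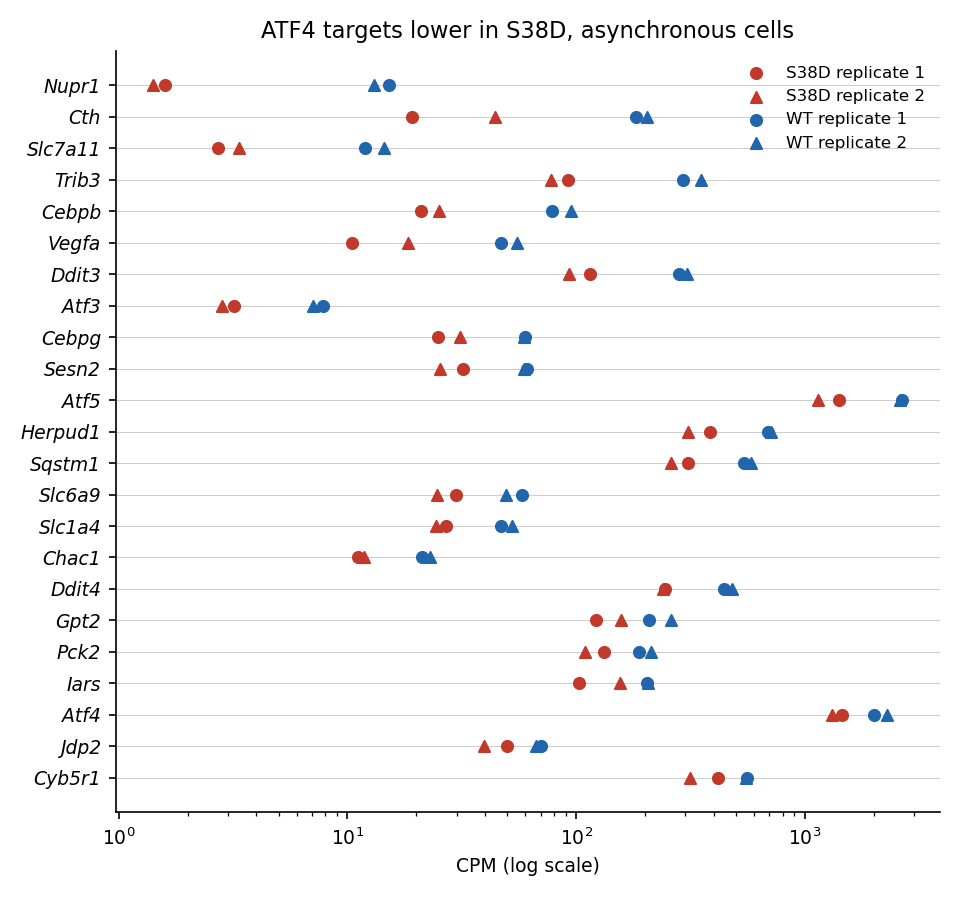
CPM on a log axis for the 23 ATF4 targets called lower, with S38D libraries in red and WT libraries in blue, circles for replicate 1 and triangles for replicate 2. In every row both red points lie to the left of both blue points, from Nupr1 near the top to Cyb5r1 at the foot.

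ATF4 binds DNA with C/EBP partners at a composite site, TGATGNAA. RefSeq promoters of build GRCm38.p6, each 250 bases before to 50 bases after a start site, were searched for it on both strands. Promoters were found for 39 of the 47 targets. The site was present in 10 of 22 targets that fell (45.5%), in 5 of 17 that were not called (29.4%), in 2.61% of the 8111 tested genes with a promoter and in 3.97% of all 32851 promoters. A match describes letters, not binding. The 250 bases before the start site are shown for 3 falling targets with the site there, the 3 with the smallest adjusted p among the 7 falling targets with the site in those bases, chosen after their values were seen. Capitals mark the site on either strand, and each sequence reads 5′ to 3′ along its gene. Nupr1 lies on the minus strand at chr7:126625471-126625720, Slc7a11 on the minus strand at chr3:50443614-50443863 and Herpud1 on the plus strand at chr8:94386179-94386428. Slc7a11 holds 2 sites, and in the other 2 genes the single site begins 110 and 112 bases before the start site.
Nupr1: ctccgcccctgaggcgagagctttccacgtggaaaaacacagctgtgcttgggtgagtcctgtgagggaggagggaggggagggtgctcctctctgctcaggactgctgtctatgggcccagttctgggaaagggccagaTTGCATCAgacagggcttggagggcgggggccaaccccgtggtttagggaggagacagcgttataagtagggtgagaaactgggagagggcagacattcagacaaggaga
Slc7a11: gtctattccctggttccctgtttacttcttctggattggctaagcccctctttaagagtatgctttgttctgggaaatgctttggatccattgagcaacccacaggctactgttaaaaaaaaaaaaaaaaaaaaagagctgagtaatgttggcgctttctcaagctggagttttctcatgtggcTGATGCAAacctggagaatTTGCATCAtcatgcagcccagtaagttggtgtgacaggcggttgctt
Herpud1: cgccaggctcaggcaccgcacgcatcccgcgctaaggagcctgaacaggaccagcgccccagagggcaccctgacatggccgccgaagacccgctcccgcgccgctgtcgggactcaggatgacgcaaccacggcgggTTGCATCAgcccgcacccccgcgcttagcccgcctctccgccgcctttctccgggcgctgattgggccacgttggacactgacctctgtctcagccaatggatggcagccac

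Among the falls that the naming rule selects, that of Ptprcap was the largest. That gene (chromosome 19, 4153604 to 4156751), a partner of the phosphatase CD45, had 2 and 7 reads in S38D, against 187 and 109 reads in WT, or 0.318 and 1.24 CPM in S38D and 36.6 and 30.9 CPM in WT. Clec4d had 3.02 and 2.48 CPM in S38D and 42.6 and 34.3 CPM in WT. Lat2, which links the B cell receptor to calcium signalling, had 13.8 and 10.6 CPM in S38D and 80.4 and 75.7 CPM in WT. Ptprc itself, which encodes CD45 and was looked up after these values were seen, was at 70.3 and 72.7 CPM in S38D and 49.1 and 41.7 CPM in WT.

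Several of these genes are usually active in other tissues. Afp, a fetal serum protein, had 8.12 and 5.83 CPM in S38D, against 54.4 and 45.1 CPM in WT. Brdt, a testis bromodomain protein that binds acetylated histones, had 8.28 and 11.5 CPM in S38D, against 58.9 and 62.1 CPM in WT. Map1a, a microtubule-associated protein best known in neurons, had 14.3 and 9.19 CPM in S38D, against 65.7 and 75.4 CPM in WT. Gng3, a G protein gamma subunit of neurons, had 12.7 and 10.2 CPM in S38D, against 61.6 and 64.0 CPM in WT. Both S38D libraries lay below both WT libraries in all 4 genes, with log2 fold changes from -2.83 for Afp to -2.44 for Gng3. Cox6a2, the heart and muscle form of a cytochrome oxidase subunit, likewise had 11.1 and 14.7 CPM in S38D and 64.3 and 63.5 CPM in WT, while 7 of 81 nuclear respiratory chain genes were called higher.

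The fall of some genes differed in size between the S38D libraries. Cystm1 had 3.50 and 16.1 CPM in S38D, against 98.2 and 97.2 CPM in WT. It held with each S38D library, but its call was lost without any 1 of 7 libraries, at edgeR adjusted p values up to 0.141. Nfxl1, a zinc finger protein gene, had 5.57 and 11.8 CPM in S38D, against 44.8 and 48.5 CPM in WT, and its call was lost without WT replicate 1 (edgeR adjusted p = 0.0519) or WT replicate 2 (edgeR adjusted p = 0.0505). Cth, given above, also differed, and it was called without each of the 12 libraries. Reep6, a membrane-shaping protein of the endoplasmic reticulum, had 7.16 and 4.95 CPM in S38D, against 29.3 and 34.3 CPM in WT, with replicate 1 the higher of the S38D pair.

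Among the rises that the naming rule selects, that of H1f0 was the largest. This gene (chromosome 15, 79028450 to 79030504), a linker histone variant found in cells that divide slowly or differentiate, had 29.4 and 42.9 CPM in S38D, against 7.82 and 5.10 CPM in WT, a log2 fold change of 2.45 (SE 0.304, edgeR adjusted p = 0.000313). Tmem121 had 57.6 and 44.0 CPM in S38D, against 12.5 and 12.2 CPM in WT. Plxnb2, a semaphorin receptor of germinal centre B cells, had 72.7 and 60.3 CPM in S38D, against 18.2 and 17.3 CPM in WT. Fcho1, which starts clathrin-coated pits, had 29.6 and 25.3 CPM in S38D, against 7.63 and 7.94 CPM in WT. These libraries did not overlap between the lines, as was so for 5389 of all genes tested (51.4%), 2748 higher (26.2%) and 2641 lower (25.2%) in S38D.

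The next genes by size were Tmem101, Fam167b, Reep2, Nrep, Cd72, Tubb3, Camk2b and Eif5b, with log2 fold changes from 1.66 to 1.38. Tubb3, a beta-tubulin best known in neurons, had 74.2 and 56.4 CPM in S38D and 22.7 and 27.5 CPM in WT. Camk2b, a calcium-dependent kinase subunit, had 26.3 and 19.8 CPM in S38D and 8.60 and 9.07 CPM in WT. Eif5b, the factor that joins ribosomal subunits at the start codon, had 91.8 and 61.2 CPM in S38D and 30.7 and 28.1 CPM in WT, a log2 fold change of 1.38 (SE 0.195, edgeR adjusted p = 0.000512). Below the 10 CPM limit and chosen after its values were seen, Tenm2, an adhesion protein gene, had 22 and 25 reads in S38D and none in WT, at least 10.7-fold higher against a floor of 3 reads over the WT group.

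**Figure D3:**
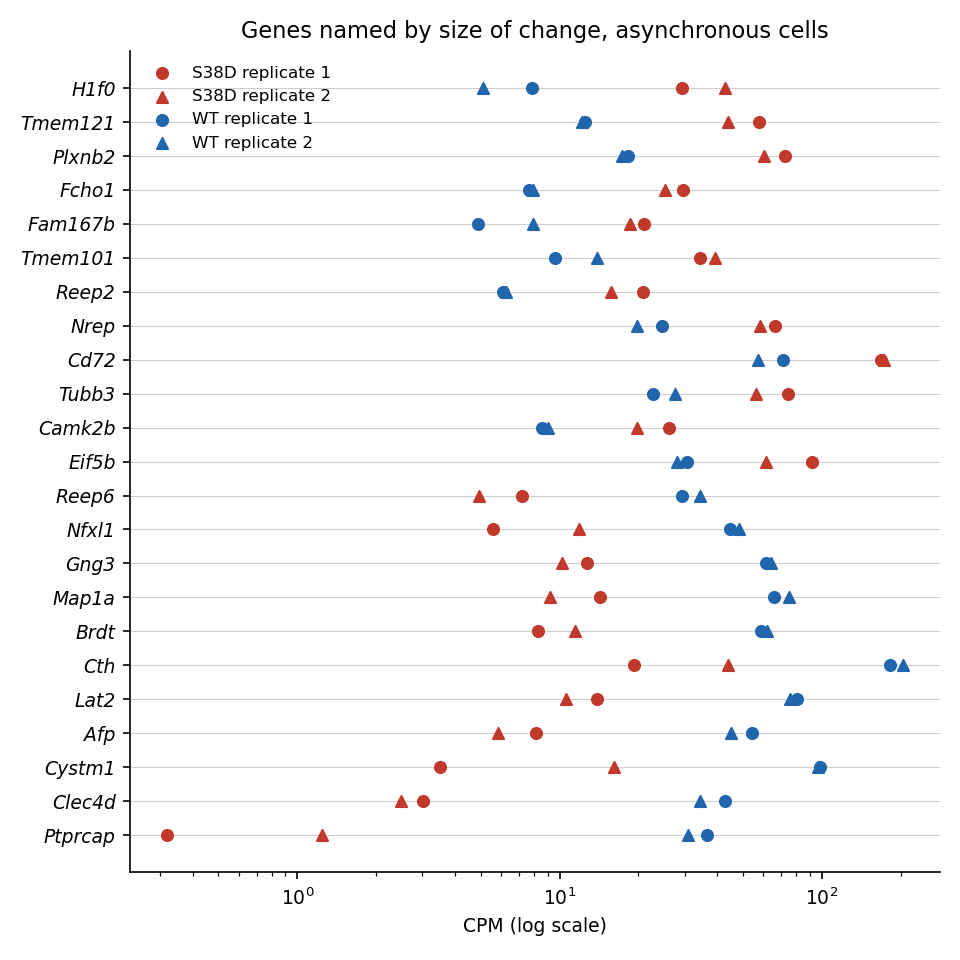
CPM on a log axis in each asynchronous library for 23 genes with the largest changes that held with each S38D library, with S38D in red and WT in blue, circles for replicate 1 and triangles for replicate 2. Red and blue points do not overlap in any row, and the red points lie far apart for Cystm1 and Ptprcap.

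B cell identity genes were more often higher than lower relative to the bulk of genes. With both S38D libraries, 4.87% of all genes were called higher and 4.12% lower. Of 39 measured, 14 were called higher and 1 lower with both S38D libraries, 10 and 1 held with each, and 6 and 1 were called without each of the 12 libraries. The list's median log2 fold change was 0.38, but -0.02 with the spike-in scaling, where 5 were called higher and 3 lower. Without WT replicate 1 the calls were 7 higher and 1 lower, and with the 2 asynchronous groups fitted alone 2 were higher and none lower. Cd72, an inhibitory coreceptor, had 168 and 172 CPM in S38D, against 71.0 and 57.2 CPM in WT. Cr2 (CD21, the complement receptor) had 107 and 94.0 CPM in S38D, against 43.8 and 38.3 CPM in WT. Bach2, a repressor that holds B cells back from plasma cell fate, had 41.2 and 28.1 CPM in S38D, against 12.5 and 15.0 CPM in WT.

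The other members called without each library and higher in S38D included Irf8, Cd22 and Tnfrsf13c (the BAFF receptor). Cd22, an inhibitory lectin of B cells, had 350 and 284 CPM in S38D and 177 and 175 CPM in WT. Pax5, which maintains B cell identity, differed between the S38D libraries. It had 118 and 257 CPM in S38D, against 233 and 239 CPM in WT, so that only replicate 1 was low and no call was made (edgeR adjusted p = 0.657).

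Lists of B cell signalling and of later stages were mixed, beside 4.87% of all genes called higher and 4.12% lower with both S38D libraries. Of 27 B cell receptor signalling genes, 7 were called higher and 4 lower, but 2 and 3 held with each library, and without either WT library none was called higher. Ptprcap and Lat2 were among the 3 that were lower throughout. Of 26 germinal centre genes 6 were higher and 2 lower, and all 8 held with each S38D library, among them Plxnb2, Bach2 and Ezh2 (higher) and Irf4 and Gna13 (lower). Ezh2, a histone methyltransferase, had 173 and 163 CPM in S38D and 115 and 102 CPM in WT, and its call was lost without WT replicate 2 (edgeR adjusted p = 0.0837). With the spike-in scaling the germinal centre median was -0.18, against 0.21 relative to the bulk, with 2 genes higher and 4 lower.

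Of 12 plasma cell genes measured, 2 were called higher and 3 lower, of which 1 and 3 held, beside 4.87% higher and 4.12% lower among all genes. Prdm1, the master regulator of plasma cell fate, had 1.43 and 1.94 CPM in S38D, against 6.45 and 7.08 CPM in WT, a log2 fold change of -1.99 (SE 0.359, edgeR adjusted p = 0.00256). Irf4, which acts with it, had 59.9 and 60.3 CPM in S38D, against 98.9 and 96.9 CPM in WT. Xbp1, a driver of secretory capacity, had 278 and 294 CPM in S38D and 196 and 223 CPM in WT, and that rise lost its call without WT replicate 1 (edgeR adjusted p = 0.265). Of 18 MHC class II genes, 1 was higher and 1 lower.

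Cell cycle lists held more genes called higher than lower. Of 75 G1/S and replication genes 20 were called higher and 1 lower, 9 and 1 held with each S38D library, and the median log2 fold change was 0.28 relative to the bulk but -0.09 with the spike-in scaling, where none was higher and 1 lower. Among all genes 4.87% were called higher, and 2.21% held and were higher. Without WT replicate 1 the counts were 1 higher and 1 lower, and with the 2 asynchronous groups fitted alone none of the 75 G1/S or the 75 G2/M genes was called in either direction. Mcm5, a subunit of the replicative helicase, had 645 and 543 CPM in S38D and 358 and 399 CPM in WT, a log2 fold change of 0.65 that lost its call without WT replicate 1 (edgeR adjusted p = 0.0747). Cdc6, which loads that helicase, had 97.1 and 94.0 CPM in S38D and 61.2 and 62.6 CPM in WT (edgeR adjusted p = 0.0604 without WT replicate 1). Ccnd2, a G1 cyclin, was the 1 gene in the other direction, with 8.60 and 6.54 CPM in S38D and 22.1 and 17.6 CPM in WT.

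Of 75 G2/M genes 10 were called higher and none lower, and 5 held, with a median of 0.16 relative to the bulk and -0.22 with the spike-in scaling. Incenp, of the chromosomal passenger complex, had 342 and 222 CPM in S38D and 138 and 143 CPM in WT, and was the 1 member called without each library. Without WT replicate 1 or WT replicate 2, 1 and 2 G2/M genes were called. The inhibitor Cdkn1b (p27), which restrains cyclin-dependent kinases and is a FOXO target, had 1.75 and 1.24 CPM in S38D, against 8.21 and 10.8 CPM in WT, a log2 fold change of -2.62 (SE 0.344, edgeR adjusted p = 0.000174). Of 25 replication-dependent histone genes, Hist1h4i was called higher and Hist2h2be lower.

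Genes of the translation machinery were near the level of all genes. Of 79 cytosolic ribosomal protein genes, only Rpl22l1 was called, lower in S38D, and the list's median log2 fold change was 0.00 relative to the bulk and -0.38 with the spike-in scaling, the shift of all genes, where 12 were called lower. Rpl22l1 had 113 and 166 CPM in S38D and 252 and 213 CPM in WT, and was not called without WT replicate 1 (edgeR adjusted p = 0.111). None of 11 genes of the P-stalk and its partners was called by edgeR with both libraries or by DESeq2, and none higher and 1 lower had an unadjusted p under 0.05. Rplp0 had 2516 and 2240 CPM in S38D and 2277 and 2272 CPM in WT, Rplp1 had 5092 and 4377 CPM in S38D and 5019 and 4548 CPM in WT, and Eef2, the translocation factor that docks at the stalk, had 5145 and 4104 CPM in S38D and 4526 and 4826 CPM in WT. The groups overlapped in all 3.

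Of 66 translation factor genes 5 were called higher and 3 lower, of which 1 and 2 held with each library, beside 4.87% higher and 4.12% lower among all genes. Eif5b, above, was the 1 that rose and held. Eif4ebp1, the mTORC1 target that blocks the cap-binding factor eIF4E and an ATF4 target in its own right, had 83.1 and 67.7 CPM in S38D, against 134 and 128 CPM in WT, a log2 fold change of -0.80 (SE 0.125, edgeR adjusted p = 0.000893). Eif5 had 41.5 and 52.7 CPM in S38D and 86.8 and 72.8 CPM in WT, and lost its call without WT replicate 1 (edgeR adjusted p = 0.107). Among 90 ribosome biogenesis genes 3 were called higher and 1 lower with both S38D libraries, 1 in each direction holding. Their median log2 fold change was 0.25 with S38D replicate 1 alone and 0.08 with replicate 2 alone, beside 0.05 and 0.01 over all genes. Nuclear respiratory chain genes had medians of 0.32 and 0.16 in these 2 fits. Of the 81, 7 were called higher and 1 lower with both libraries, and 2 higher and 1 lower held with each.

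Shares among all genes, 4.87% higher and 4.12% lower, stand beside the counts of the smaller lists, several of which are near them. Of 27 p53 target genes 5 were lower and none higher. The 4 that held were Trp53inp1, Bbc3, Btg2 and Sesn2, the last also an ATF4 target. Bbc3 (PUMA, which promotes apoptosis) had 47.9 and 50.4 CPM in S38D, against 108 and 103 CPM in WT. Trp53inp1, a stress-induced autophagy and apoptosis gene, had 4.93 and 6.89 CPM in S38D and 36.2 and 24.4 CPM in WT. Tsc22d3 (GILZ), a FOXO and glucocorticoid target, had 35.6 and 38.2 CPM in S38D and 80.0 and 77.1 CPM in WT. Bbc3, Trp53inp1 and Tsc22d3 were called without each library. The list of PI3K and FOXO genes was mixed, with 3 of 26 called higher (Trib2, Pik3cd and Pik3r1) and 5 lower. Its median log2 fold change was -0.06.

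Of 42 immediate early genes 3 were called higher and 6 lower, beside 4.87% higher and 4.12% lower among all genes. Dusp2, a phosphatase of activated MAP kinases in lymphocytes, had 1172 and 1255 CPM in S38D, against 737 and 790 CPM in WT. Egr1 had 88.7 and 162 CPM in S38D and 48.1 and 53 CPM in WT, higher in both S38D libraries but by amounts that differed between them, and it lost its call without WT replicate 1 (edgeR adjusted p = 0.161) or WT replicate 2 (edgeR adjusted p = 0.0856). In the other direction Jund had 40.8 and 50.0 CPM in S38D, against 90.7 and 88.7 CPM in WT, and Nr4a2 had 5.57 and 6.72 CPM in S38D, against 16.6 and 21.5 CPM in WT. Of 29 cholesterol synthesis genes 2 were called lower and none higher, and both held with each S38D library. The nuclear RNA Neat1 had 138 and 122.9 CPM in S38D, against 210 and 210 CPM in WT.

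Differences of more than 1 log2 unit between the S38D libraries ran in 1 direction, while smaller ones ran both ways. Over 5560 genes with at least 20 CPM and a known GC content, 409 were lower by more than 1 log2 unit in replicate 1 than in replicate 2 and none was higher by as much, with values from -4.47 to 0.96. The genes lower in replicate 1 had a median of 37.7% GC over the last 300 nt of the transcript, against 43.3% for all of them. With the genes cut by GC content into 10 bins of 556, the median difference was -0.18 in the lowest and 0.32 in the highest. Across these genes, which share their libraries and are not replicates, Spearman's rho of GC content and the difference was 0.437 in S38D and -0.194 in WT. Of the 409 genes, 174 (42.5%) were also lower by more than 1 in WT mitotic replicate 1 than in its partner, which is 94.1% of the 185 genes lower there. None of them was so in WT asynchronous replicate 1. The part of GC content in the results was not tested beyond a fit with an offset for it, which called 562 genes higher and 456 lower.

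**Figure D4:**
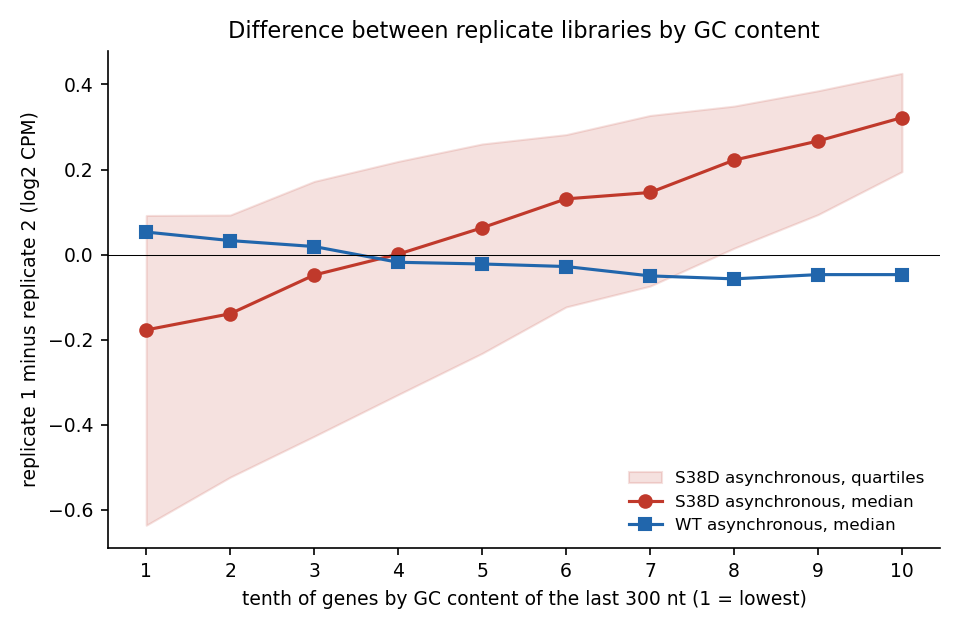
Median log2 CPM of replicate 1 minus replicate 2 on the vertical axis, in 10 bins of the 5560 genes ordered by the GC content of the last 300 nt on the horizontal axis, for S38D (red, with quartiles shaded) and WT (blue) asynchronous libraries. The S38D medians run from -0.18 in the lowest bin to 0.32 in the highest while the WT medians stay between -0.06 and 0.05.

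Genes that set the S38D libraries apart most were Ppp4c, Syvn1, Pfn1, Senp3, Mrps28 and Llgl1, and none of them was called with both S38D libraries. Syvn1, a ubiquitin ligase of the endoplasmic reticulum, had 13.0 and 244 CPM in S38D, against 272 and 271 CPM in WT. Pfn1 (profilin, which binds actin) had 5.09 and 80.6 CPM in S38D and 96.4 and 112 CPM in WT. Senp3 had 6.37 and 97.8 CPM in S38D and 63.0 and 54.4 CPM in WT, so that 1 S38D library lay below and the other above both WT libraries. The same genes were low in WT mitotic replicate 1, where Syvn1 had 10.96 CPM beside 122.9 CPM in WT mitotic replicate 2. In the other direction the first gene, Hist1h1e, had 37.7 and 19.3 CPM in S38D and 18.4 and 20.97 CPM in WT.

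The same lines were also sequenced after 8 h in nocodazole at 100 ng/mL, which arrests cells in mitosis, and 10 min of release. That comparison uses 2 S38D and 2 WT mitotic libraries and shares none with the asynchronous one. It called 478 genes (4.56%), 121 higher (1.15%) and 357 lower (3.41%) in S38D. In both states 205 genes were called in the same direction, 55 higher and 150 lower, which is 21.8% of the asynchronous and 42.9% of the mitotic calls, and 4 were called in opposite directions. Of the 224 genes that held and were lower, 125 (55.8%) were called lower in mitotic cells, and of the 232 that held and were higher, 44 (19%) were called higher. Among genes called with S38D replicate 1 but not with replicate 2 these shares were 2% and 1.13%. Of all genes, 3.41% were called lower and 1.15% higher in mitotic cells. Among genes called with S38D replicate 2 but not with replicate 1 the shares were 42.6% of lower and 9.38% of higher genes. WT mitotic replicate 1, which lay near S38D replicate 1 on the main axis within groups, is 1 of the 2 WT libraries here. Genes called lower with S38D replicate 1 but not with replicate 2 had a median mitotic log2 fold change of 0.21.

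**Figure D5:**
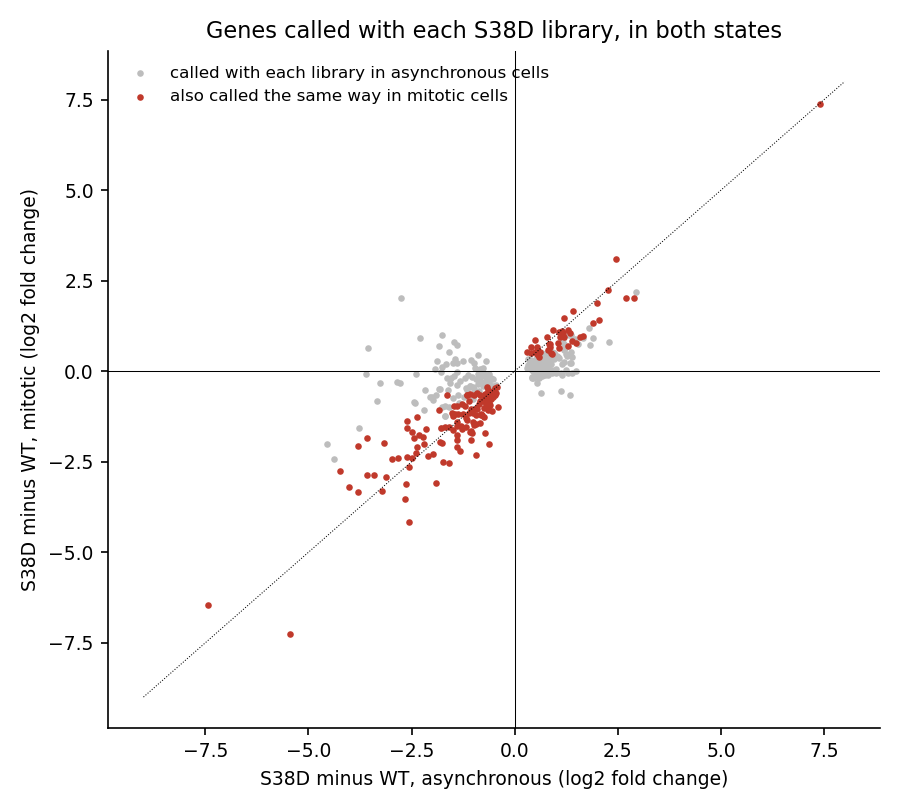
Log2 fold change of S38D against WT in asynchronous cells on the horizontal axis and in mitotic cells on the vertical axis for the 456 genes that held with each S38D library. Red points, called the same way in mitotic cells, number 169 and lie mostly in the lower left, and the 2 points at the ends of the axes are Inhbe and Tenm2, whose fitted values rest on a group without reads.

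Among the leading genes, Ptprcap and H1f0 differed in the same direction in mitotic cells, while Nrep and Eif5b had mitotic log2 fold changes of 0.00 and -0.06. Ptprcap had 0 and 0.362 CPM in S38D, against 34.4 and 32.0 CPM in WT mitotic libraries, and H1f0 had 74.6 and 79.7 CPM in S38D, against 6.23 and 11.8 CPM in WT. Genes higher in both states by the largest margins included Cd72, Plxnb2, Nacc2 and Shisa8, the last with 87.5 and 64.7 CPM in S38D and 34.4 and 27.2 CPM in WT asynchronous libraries. Of the 47 ATF4 targets, 29 were called lower and none higher in mitotic cells, with a median log2 fold change of -0.76. Asns, not called in asynchronous cells, had 53.1 and 48.4 CPM in S38D, against 113.5 and 98.5 CPM in WT mitotic libraries. B cell identity genes were called higher in 7 and lower in 2 cases, and G1/S genes in 2 and 2.

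The test of the difference between the states called 42 genes (0.401%), 15 higher (0.143%) and 27 lower (0.258%) in the mitotic than in the asynchronous effect of S38D. None was called with the spike-in scaling, where 1615 genes had an unadjusted p under 0.05, or with only these groups fitted, where 1443 did, while DESeq2 called 23 higher. For Trib3 the fall was larger in mitotic cells, with 26.6 and 24.5 CPM in S38D, against 229 and 202 CPM in WT mitotic libraries. For Cebpb it was smaller, with 28.6 and 21.9 CPM in S38D, against 37.2 and 41.7 CPM in WT mitotic libraries. Fdft1, squalene synthase, overlapped between the lines in asynchronous cells, with 154 and 115 CPM in S38D and 136 and 143 CPM in WT, while in mitotic cells it had 76.6 and 82.1 CPM in S38D, against 236 and 225 CPM in WT.

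S38D was also set against S38A, the line with alanine at codon 38, in asynchronous cells. That comparison shares the S38D libraries with the one above, so no overlap is given. It called 756 genes (7.22%), 348 higher (3.32%) and 408 lower (3.89%) in S38D, while S38A against WT called 2223 (21.2%), 1224 higher (11.7%) and 999 lower (9.54%) in S38A. Both mutant lines were set against the same 2 WT libraries, so agreement between them is partly built in. The median ATF4 target had log2 fold changes of -0.04 for S38D against S38A, -0.62 for S38D against WT and -0.42 for S38A against WT. Medians against WT for S38D and S38A were 0.38 and 0.41 for B cell identity, 0.28 and 0.30 for G1/S and 0.16 and 0.38 for G2/M genes. Replication-dependent histone genes lay on opposite sides of WT, with medians of 0.45 in S38D and -0.49 in S38A. Ptprcap had 0.318 and 1.24 CPM in S38D and 0.315 and 0.172 CPM in S38A, beside 36.6 and 30.9 CPM in WT. Plxnb2 had 72.7 and 60.3 CPM in S38D and 77.5 and 80.0 CPM in S38A, beside 18.2 and 17.3 CPM in WT.

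Other genes differed between the mutant lines. Wnt10a, a secreted Wnt ligand, had 38.7 and 34.1 CPM in S38D and 0.788 and 0.517 CPM in S38A, beside 23.3 and 26.9 CPM in WT. Kcnab2, a potassium channel subunit, had 90.2 and 68.4 CPM in S38D and 3.15 and 3.97 CPM in S38A, beside 54.4 and 61.2 CPM in WT. Neither was called for S38D against WT, with edgeR adjusted p = 0.0591 for Wnt10a and 0.12 for Kcnab2. Slc41a2, a magnesium transporter, had 140 and 113 CPM in S38D and 532 and 551 CPM in S38A, beside 128 and 121 CPM in WT. Tmem121 had 57.6 and 44.0 CPM in S38D, 3.62 and 3.45 CPM in S38A and 12.5 and 12.2 CPM in WT, so that the mutant lines lay on opposite sides of WT. Crip1, a LIM domain protein gene, lay the other way, with 10.3 and 7.60 CPM in S38D, 121 and 115 CPM in S38A and 28.5 and 31.5 CPM in WT.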

How the data were processed

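The deposited values are raw counts of 3′ mRNA-seq reads per gene in 12 libraries, with 92 ERCC spike-ins, as the files hold them. Per the labels' protocols, 1 µg of total RNA with spike-ins went into QuantSeq FWD libraries, read for 51 nt with 12 libraries per lane. The submitters' processing notes list STAR 2.5.3a, cutadapt 1.12 and bcl2fastq 2.16.0.10, with the mm10 build. Which program counted reads, with what annotation and strand setting, is not stated in the labels, so overlapping and antisense genes may share reads. Gene IDs were matched to GENCODE names (51633 of 51826, 99.63%).

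Gene reads per library ranged from 3432875 to 6587997. Groups came from the sample titles. One quasi-likelihood model (edgeR 4.0.16, robust, R 4.3.3) was fitted to all 12 libraries, 6 groups of 2, with TMM factors and genes kept by filterByExpr (minimum count 10). Log2 fold changes carry that model's standard errors, and p-values were adjusted over 10477 genes. Alternatives used DESeq2 1.42.0, limma 3.58.1 voom, other scalings, filters and left-out libraries. On simulated counts for S38D against WT in asynchronous cells (10205 genes), 78% of changes of log2 size 1 and 100% of size 2 were recovered, and 6.81% of calls were false. The simulation gave all genes 1 common spread, changed only genes of at least 10 CPM and held no shared difference between the S38D libraries. Its rates therefore need not apply to the real libraries, where the S38D pair differed beyond counting error for 44.8% of genes.

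Genes were named by rule: Rpl12, the 12 largest changes in each direction that held with each S38D library with a mean of at least 10 CPM, up to 3 members of each list by adjusted p, and leading genes of the replicate difference, of both states and of S38D against S38A. The remaining named genes were picked with their values in view. The comparison and the 37 gene lists were chosen with earlier results of these data known. Some genes that the rule or the lists select are not reported here.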

Additional observations from a re-analysis of the deposited data

Results flagged for a closer look

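Results are listed here because the effect of S38D differed between mitotic and asynchronous cells by edgeR's interaction test. Differences are the mitotic minus the asynchronous log2 fold change. Nrep differed by -1.481 (edgeR adjusted p = 0.0455) and Eif5b by -1.437 (edgeR adjusted p = 0.036), both higher in S38D in asynchronous cells. Trib3 differed by -1.165 (edgeR adjusted p = 0.0213) and Cebpb by 1.261 (edgeR adjusted p = 0.0371). Sap30, part of a histone deacetylase complex, differed by 2.106 (edgeR adjusted p = 0.036), with 9.07 and 10.96 CPM in S38D and 24.4 and 28.3 CPM in WT asynchronous libraries. Ackr4, a chemokine scavenger receptor, differed by -1.663 (edgeR adjusted p = 0.036), with 50.6 and 49.7 CPM in S38D and 25.2 and 20.4 CPM in WT asynchronous libraries. Fdft1 differed by -1.489 (edgeR adjusted p = 0.00926). With only the groups compared in the fit, or with the spike-in scaling, no gene was called for this difference. S38D asynchronous replicate 1 and WT mitotic replicate 1, which stood apart within their groups, both enter this difference.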

How the results depend on the processing

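No fold change of a named gene that was called turned its sign under the alternatives run, but with the spike-in scaling the balance of calls turned to lower and the medians of the G1/S, G2/M and germinal centre lists turned to -0.09, -0.22 and -0.18. The within-group axis was used as a covariate for the asynchronous comparison with WT alone. For S38D against WT in asynchronous cells, the genes higher and lower were 327 and 257 by DESeq2, 21 and 62 with only the groups compared, and 58 and 1307 with the spike-in scaling. Without a filter 953 were higher, with a 10 CPM filter 287 were lower, and with the within-group axis as covariate 694 were lower. Leaving out 1 library gave 88 to 1825 higher and 147 to 1387 lower. Genes called with each S38D library numbered 103 and 126 by DESeq2, 440 and 554 with only the groups compared, and 41 and 634 with the spike-in scaling, and 68 to 296 and 133 to 337 with 1 library left out.

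In mitotic cells DESeq2 gave 77 higher and 215 lower, no filter 281 higher, the spike-in scaling 39 higher, and leaving out S38D asynchronous 1 and WT mitotic 1 together, chosen after seeing the data, 241 higher. Leaving out 1 library gave 34 to 468 higher and 146 to 635 lower. For S38D against S38A the counts were 186 and 258 by DESeq2, 844 and 1076 without both those libraries, 50 and 55 with only the groups compared, and 144 lower with the spike-in scaling, and 91 to 687 and 126 to 840 with 1 library left out. For the difference between states there were 9 higher with the 10 CPM filter, 23 higher by DESeq2, 6 and 17 with a GC offset chosen after seeing the data, 322 and 404 with no filter, 0 and 0 with only the groups compared or the spike-in scaling, and 0 and 1 with the robust option off (2084 at an unadjusted p under 0.05). Leaving out 1 library gave 0 to 1176 and 0 to 1581. The cause was not tested.

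Replicate numbers did not pair the samples throughout: of 15 correlations of replicate differences, 3 exceeded 0.1 and 3 were below -0.1. Those 6 were large. S38D asynchronous gave 0.83 with WT mitotic and 0.649 with S38A mitotic, and WT mitotic gave 0.611 with S38A mitotic. S38A asynchronous gave -0.452 with S38D asynchronous, -0.415 with WT mitotic and -0.438 with S38A mitotic. A replicate block gave 573 higher and 528 lower in asynchronous cells and 43 and 52 for the difference between states. Of 98 called named genes, 85 kept their call by DESeq2, 71 with the spike-in scaling, 93 with the GC offset and 27 with only the groups compared. With 2 libraries a group, and 3432875 gene reads in the shallowest, small changes of low genes were not detectable.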

Other observations

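By chromosome, calls in asynchronous cells, given as a description with no test, made up 13.4% of 373 tested genes on chromosome 19 (32 higher and 18 lower in S38D), 11% of 794 on chromosome 7 (54 higher and 33 lower) and 7.14% of 336 on chromosome 16 (9 higher and 15 lower). Median log2 fold changes ran from -0.11 on chromosome 3 to 0.10 on chromosome 17. Of 216 Zfp genes, the zinc finger family named by that prefix, 2 were called higher and 2 lower. Of 48 proteasome genes 2 were higher and 1 lower, and of 27 heat shock genes 3 were higher and none lower (edgeR). Among all genes 4.87% were called higher and 4.12% lower.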
